A study of Mus musculus with 2 samples.

Results

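Natural killer (NK) cells and innate lymphoid cells are lymphocytes without a rearranged antigen receptor. By a rule on marker counts, 89 cells were chosen for them among the 15374 single cells of obese mouse epididymal fat that carried a hashtag and were not named as doublets. A cell was kept when at least 2 of 6 genes (Ncr1, Klrb1c, Klre1, Il2rb, Eomes and Klrk1) were counted and Cd3e, Cd3d and Cd3g were all at 0. Its summed Cd68, C1qa and C1qb had to lie under 20 counts per 10000 (CP10k), its summed Dcn and Lum under 10 CP10k, and fewer than 2 of Cdh5, Kdr and Cldn5 could be counted. Of the 89 cells, 10 fell into a sub-cluster with dendritic and cycling genes that is left without a type name. These genes of the rule fixed the choice, so their levels are given as a description and not as a result.

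The cells came from the stromal vascular fraction, the non-adipocyte cells freed by digestion, of male C57BL/6J mice. All mice received a high-fat diet for 15 weeks, and they were either wild-type or deficient in Mincle (Clec4e), a lectin receptor that myeloid cells use to sense microbes and dying cells. Each suspension was stained with hashtag antibodies, the suspensions were pooled, 20000 cells were loaded on a BD Rhapsody device, and libraries were made by TAS-Seq, a single-cell method that amplifies cDNA after adding a tail with terminal transferase. The hashtags are A0309, A0310, A0311 and A0312. The labels do not say which hashtag marks which genotype, nor how many mice each stands for, so the genotypes were not compared, and no group on a standard diet is among the samples. The pool is 1 sample and cells are not replicates. Differences are therefore described by size, with no p-value, and intervals are exact 95% intervals that cover counting error only.

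Conventional NK cells circulate, carry perforin and granzymes in granules and decide to kill by adding up signals from activating and inhibitory receptors, many of them lectin-like proteins of the Klr families. Group 1 innate lymphoid cells (ILC1) are tissue-resident relatives that make interferon gamma but are less cytotoxic, while group 2 cells (ILC2) depend on Gata3 and make type 2 cytokines and group 3 cells (ILC3) make type 17 cytokines. In adipose tissue these lymphocytes are known as a source of interferon gamma that acts on macrophages during obesity.

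Most of the chosen cells had more of the 6 genes than the rule asked for. Among cells that met every other limit, 1150 had none of the 6 genes counted, 204 had 1, 8 had 2, 8 had 3, 18 had 4, 29 had 5 and 26 had all 6. Of the 204 cells just outside, 148 were there through Klrk1 and 28 through Eomes, and Nkg7, a granule membrane protein that the rule did not use, was counted in 3 of them. Nkg7 was counted in 2 of the 8 cells just inside with 2 genes, in 7 of the 8 with 3, and in all cells with 4 or more. Klrd1, a receptor gene that the rule did not use either, showed a less sharp step. It was counted in 58 of the 204 cells just outside, in 5 of the 8 with 2 genes and in 5 of the 8 with 3. With 4, 5 and 6 genes it was counted in 12 of 18, 25 of 29 and 24 of 26 cells. Prf1, also outside the rule, was counted in 1 of the 204, in 1 of the 8 with 2 genes and in 5 of the 8 with 3. The highest macrophage sum among the 89 cells was 7.93 CP10k, 54 of them were at 0, and the nearest cell outside that limit had 21.8 CP10k. A further 18 cells with at least 4 of the 6 genes and no Cd3 count failed a macrophage, fibroblast or endothelial limit, and their median depth was 25172 counts against 10369 in the 89 cells. Another 117 cells passed the other limits but had a Cd3 count. Of these, 105 had Trbc2 and 77 had Trac counted, both chains of the T cell receptor, and 24 had Ncr1. Eomes was counted in 45 of them and Prf1 in 44. Only 24 of the 117 had just 1 Cd3 gene counted. All others, with at least 2 Cd3 genes, are part of the T cell group used below.

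The 89 cells made up 0.579% of cells (0.465 to 0.712%), or 0.514% (79 cells) without the 10 unnamed ones. By hashtag there were 25 of 3288 cells in A0309 (0.760%, 0.493 to 1.12%), 19 of 3537 in A0310 (0.537%, 0.324 to 0.838%), 15 of 3893 in A0311 (0.385%, 0.216 to 0.635%) and 30 of 4656 in A0312 (0.644%, 0.435 to 0.919%). A0309 was highest and A0311 lowest, and the intervals of all 4 hashtags overlapped. T cells, defined by at least 2 of the 3 Cd3 genes under the same other limits, numbered 211 (1.37%). Their shares were 1.28%, 0.707%, 1.31% and 2.0% in A0309, A0310, A0311 and A0312. The NK and innate lymphoid cells thus formed 29.7% (24.6 to 35.2%) of both lymphocyte groups together, with 37.3%, 43.2%, 22.7% and 24.4% in A0309, A0310, A0311 and A0312. The plot of abundance shows this ratio above 37% in A0309 and A0310 and under 25% in A0311 and A0312, with overlapping intervals.

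**Figure D1:**
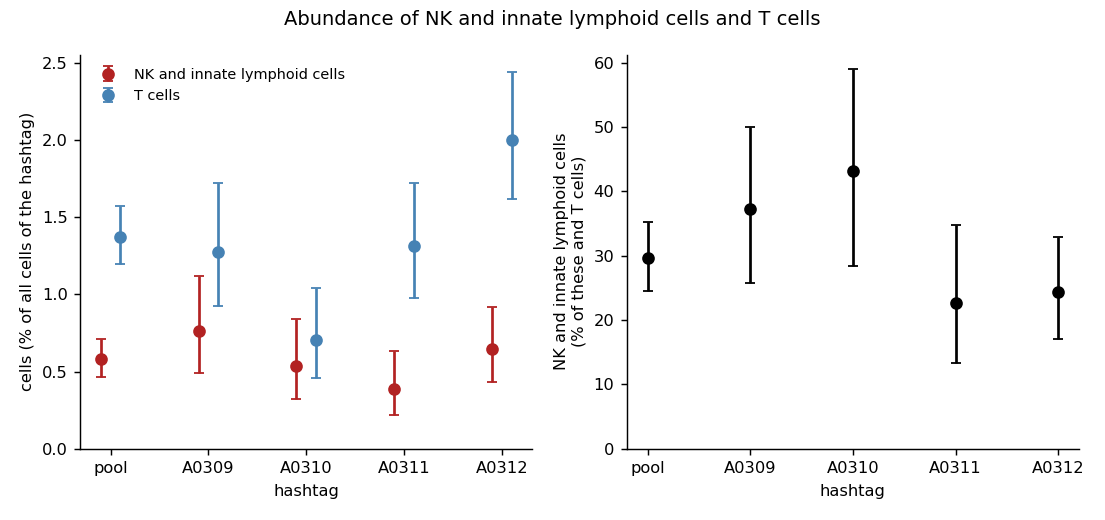
Shares of NK and innate lymphoid cells and of T cells among all cells, in percent, and of the former among both, for the pool and each of the 4 hashtags. Points are shares and bars are exact 95% intervals of counting error. The share of all cells ranges from 0.385% in A0311 to 0.760% in A0309.

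The 89 cells had a median of 10369 counts (7038 to 33015) and 2361 genes, close to the T cells with 10227 counts and well under the 7283 macrophage-gated cells with 39311 and the 3311 fibroblast-gated cells with 35506. Mitochondrial genes took a median of 4.04% of counts, against 4.88% in T cells. Marker lists describe the cells and do not check the label, since the choice by NK genes and absent Cd3 used the same contrast. Of 11 markers fixed for conventional NK cells, which include Eomes from the rule, 9 were called higher than in T cells. Over all genes tested the share called higher was 3.39%. Of 10 ILC1 markers, 0 were called higher than in T cells, and Cxcr6 and Il7r were called lower. Against all other cells 4 of these 10 were higher and 2 lower, and a sub-cluster described further on is named by this list. Il17a, Il23r and Ccr6 of 6 ILC3 markers and Il5, Il17rb and Hs3st1 of 10 ILC2 markers were at 0, while the other markers of both lists were counted. The ILC2 list summed to 262 CPM (counts per 1000000), 145 to 601 over the hashtags, against 495 CPM in T cells and 74.1 CPM in all other cells. For the ILC3 list the sums were 20.2, 61.6 and 52.7 CPM in the 89 cells, T cells and all other cells. Macrophage and fibroblast transcripts were low in sum but were counted in many cells. The 9 macrophage markers summed to 364 CPM, 134 to 605 over the hashtags, against 10847 CPM in all other cells. The 5 fibroblast markers summed to 48.0 CPM. At least 1 macrophage marker was counted in 60 of the 89 cells and at least 3 in 7. At least 1 fibroblast marker was counted in 29 cells and at least 2 in 1. Per-cell values under 7 of Cd68, 6 of C1qa, 7 of C1qc, 18 of Lyz2, 37 of Col3a1, 68 of Dcn and 8 of Lum had been set to 0 before deposit, so low levels of these markers are missing from the sums and from the limits of the rule. The dendritic list was not low in sum, at 5560 CPM, and spread from 405 to 12822 CPM over the hashtags. T cells had 1732 CPM of it. Most of these counts sat in 1 sub-cluster of 10 cells that is described further on.

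T cells were taken as the nearest lymphocytes in the pool. Compared with them, the 89 cells had more transcript of most lectin-like NK receptors. In each hashtag they had more of the adaptors Tyrobp and Fcer1g, of Gzma, Prf1 and Gzmb, and of Irf8, and they had less of the T cell scaffold Lat, of Il7r and of Cxcr6. Ifng and Tbx21 were at 193 and 133 CPM, against 176 and 118 CPM in T cells.

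Counts were summed over the cells of a group and scaled to CPM of that group's own total. A gene was called higher or lower when log2 of the ratio of (CPM + 1) was at least 1 in size, with the same sign and at least that size in the pool and in A0309 and A0312, the hashtags with at least 20 cells of both kinds. By this rule 3.39% of the 12303 genes tested were called higher in the 89 cells than in T cells (417 genes) and 5.94% lower (731 genes), with a median log2 ratio of -0.02. When all 4 hashtags had to show it, 106 genes (0.862%) were higher and 297 (2.41%) lower. The choice of cells by NK genes and by the absence of Cd3 used the same contrast, so the counts below describe the cells and nothing is read from their distance to this background. CPM do not adjust for gene length, so levels are compared between cell groups and not between genes.

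Receptors were the list with the most genes higher than in T cells. Of 28 receptors tested, 17 were called higher and 0 lower, with a median log2 ratio of 2.01, and 4 of the 17 (Ncr1, Klrb1c, Klre1 and Klrk1) belong to the rule. In all 4 hashtags 14 were higher. All 18 lectin-like receptor genes of the list other than Klrg1 lie on chromosome 6 between 128609227 and 130386874 (GRCm38), a stretch of 1778 kb known as the natural killer gene complex. Near-identical members of these families share sequence, so reads may be split between them and single members are uncertain.

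Klra8, which encodes Ly49H, an activating receptor that recognises a cytomegalovirus protein, was at 785, 902, 122 and 87.2 CPM in A0309, A0310, A0311 and A0312, and at 0, 24.3, 4.53 and 0.688 CPM in the T cells of the same hashtags. Every hashtag of the NK and innate lymphoid cells lay above every hashtag of T cells, with a pooled log2 ratio of 6.66, and A0309 and A0310 were several-fold above the other two. Klrb1b, an inhibitory receptor that binds Clec2d, was at 302.4, 494, 6.76 and 75.6 CPM in A0309, A0310, A0311 and A0312 against 2.42 CPM in pooled T cells. A0311 was close to the T cell level here, from 1 count in 15 cells.

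Klra4, which encodes the activating receptor Ly49D, was at 150, 274, 405 and 727 CPM in A0309, A0310, A0311 and A0312 against 28.4 CPM in T cells (log2 3.78). A0311 and A0312, the hashtags lowest for Klra8, were highest for Klra4. Klra3 (144 against 4.50 CPM, log2 4.72) and Klri2 (94.0 against 5.19 CPM, log2 3.94) were also among the largest ratios. Klrd1, the CD94 partner chain of NKG2 receptors, was at 547, 507, 480 and 602 CPM in A0309 to A0312 against 134 CPM in T cells (log2 2.03), nearly level over the hashtags. Its partner Klrc1 (NKG2A) was at 345, 386, 142 and 177 CPM against 47.8 CPM in T cells, lowest in A0311.

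The other 11 receptors tested were not called. Among them Cd226, a receptor for Pvr and Nectin2 that also sits on T cells, was at 221 CPM against 239 CPM. Klrg1, an inhibitory receptor of mature NK cells and effector T cells, was at 119 CPM against 97.9 CPM, and the T cells of A0309 alone reached 340 CPM. Of the rule's own genes, Ncr1 (NKp46) was at 238, 530, 561 and 390 CPM in A0309 to A0312, and T cells had 22.1 CPM.

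**Figure D2:**
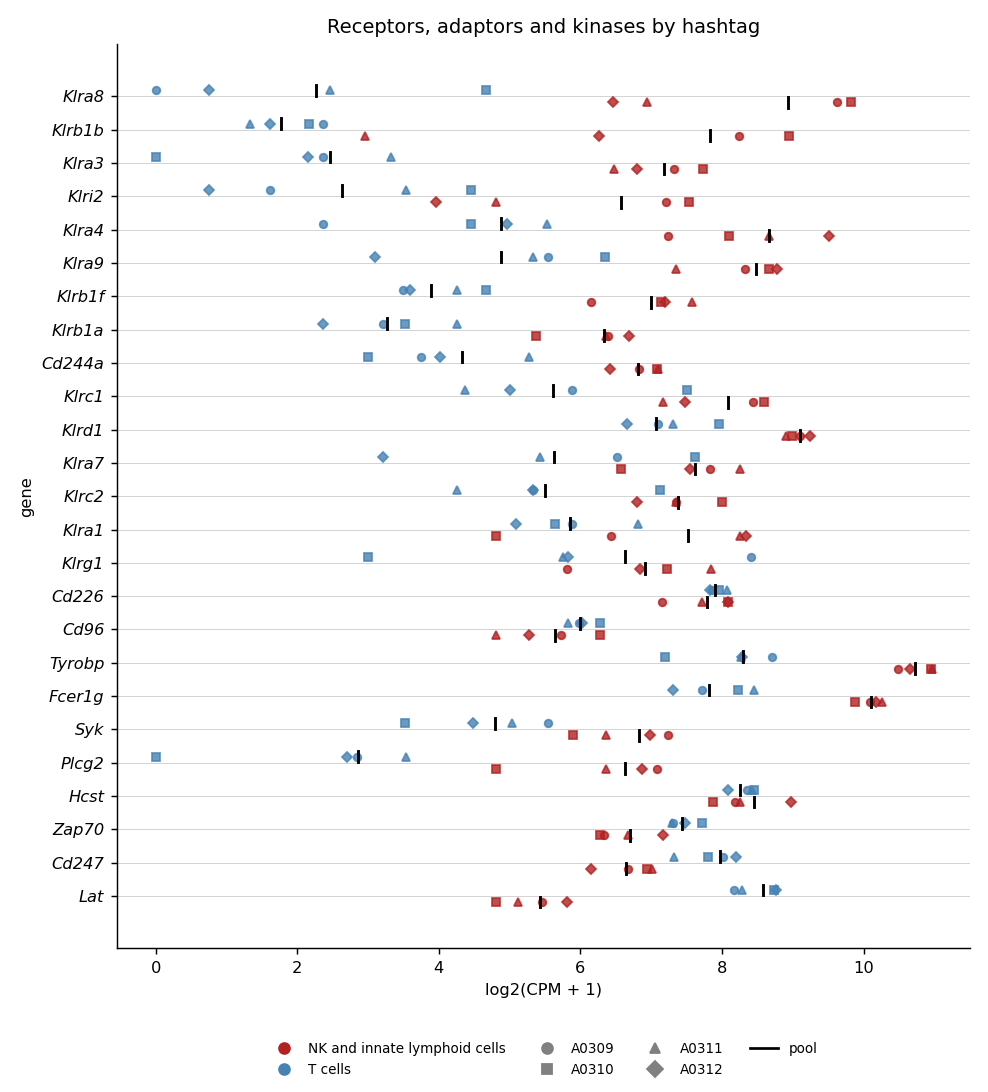
Levels of NK receptor genes and their adaptors as log2(CPM + 1) for NK and innate lymphoid cells and for T cells, with 1 point for each hashtag and a black line for the pool. Klra8 runs from 87.2 to 902 CPM and Klrb1b from 6.76 to 494 CPM over the hashtags of the 89 cells, while Klrd1 stays between 480 and 602 CPM.

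Receptors of NK cells signal through adaptors that carry activation motifs. Of 20 adaptors and proximal kinases, 7 were called higher than in T cells and 2 lower (median log2 0.30). Their summed level was 5564 CPM in the 89 cells, 3256 CPM in T cells and 3754 CPM in all other cells. Tyrobp, which encodes DAP12, the adaptor of Ly49H and Ly49D, was at 1439, 1975, 1993 and 1614 CPM in A0309, A0310, A0311 and A0312, against 418, 146, 306.3 and 311.6 CPM in T cells. The groups did not overlap (log2 2.43). Values of Tyrobp under 9 in a cell had been set to 0 before deposit, so low levels are missing from both sides. Fcer1g, the common gamma chain adaptor of NKp46 and also of Mincle, was at 1084, 943, 1230 and 1152 CPM against 210, 299, 350 and 158 CPM (log2 2.28), again without overlap. It was counted in 97.8% of the 89 cells (92.1 to 99.7%), in 35.5% of T cells and in 41.7% of the deeper fibroblast-gated cells. Thinned to 6000 counts a cell these shares were 92.1%, 29.9% and 13.6%. Macrophage-gated cells were not set beside these shares, so Fcer1g is not shown to mark the 89 cells within the pool.

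Downstream of these adaptors, Syk was at 112 CPM against 26.6 CPM (log2 2.03). Plcg2, the phospholipase that Syk activates, was at 97.9 CPM against 6.23 CPM (log2 3.77), lowest in A0310 with 26.9 CPM. Sh2d1b1, the adaptor EAT-2, was at 48.0 CPM against 5.54 CPM. The T cell counterparts ran the other way. Lat, the scaffold of T cell receptor signalling, was at 42.8, 26.9, 33.8 and 55.3 CPM against 286, 424, 310.8 and 435 CPM (log2 -3.14), and Lat2, its relative in myeloid and NK cells, was at 123 CPM against 33.6 CPM. Cd247, the zeta chain used by both lineages, was called lower (98.8 against 249 CPM, log2 -1.33). Zap70 (103 against 172 CPM), Lck (255 against 348 CPM) and Hcst (349 against 303.5 CPM), the DAP10 adaptor of NKG2D, were not called.

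Of 20 cytotoxic effector genes, 8 were called higher than in T cells and 1 lower (median log2 0.67), and 5 were higher in all 4 hashtags. Gzma, the granule protease granzyme A, was at 1454, 2747, 5230 and 2576 CPM in A0309, A0310, A0311 and A0312, against 0, 236, 109 and 3.44 CPM in T cells. A0311 was highest and A0309 lowest, and no hashtag of one group reached the other (pooled 2637 CPM, 2539 to 2737, against 50.2 CPM, 42.3 to 59.0; log2 5.69). Gzma was counted in 52 of the 89 cells (58.4%, 47.5 to 68.8%), in 2.84% of T cells and in 0.181% of fibroblast-gated cells, and in 58.4% of the 89 cells after thinning.

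Prf1, the pore-forming perforin, was at 510, 660, 1230 and 776 CPM in A0309 to A0312 against 20.6, 150, 80.0 and 29.6 CPM in T cells (log2 3.80). Gzmb, granzyme B, was at 208, 373, 723 and 343 CPM against 74.2, 62.6, 170 and 16.5 CPM (log2 2.43). For both genes A0311 was highest, and all hashtags of the 89 cells were above those of T cells. Of the 15 cells of A0311, 11 fell into a conventional-NK-like sub-cluster described further on. This was so for 13 of 25 cells in A0309, 8 of 19 in A0310 and 15 of 30 in A0312. Whether these shares bear on the hashtag levels was not tested. Serpinb9, the inhibitor that shields a killer cell from its own granzyme B, was at 478 CPM against 85.8 CPM (log2 2.46). Nkg7 was at 1631 CPM against 677 CPM (log2 1.27), and in A0310 it was nearer to T cells (1333 against 779 CPM). Gzmk, a granzyme of memory T cells, was the 1 gene called lower, with counts in 1 cell (1.92 against 57.4 CPM). Srgn, the proteoglycan core of the granule, was not called (1138 against 1129 CPM).

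Cma1, a chymase best known from mast cells, was counted in 16 of the 89 cells and in 0 of 211 T cells. Its level was 24.4, 26.9, 230 and 105 CPM in A0309, A0310, A0311 and A0312, again highest in A0311. Against the floor of 3 counts over all T cells, the pooled level of 80.6 CPM (64.3 to 99.8) was at least 77.6-fold higher. Of the other mast cell markers, Mcpt4, Tpsb2 and Ms4a2 were at 0 and Cpa3 was counted in 2 cells.

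The promoters of Ncr1, a gene of the rule, and of 3 granule genes are shown because these genes were higher in the 89 cells and because factors of the RUNX family, which recognise the letters TGTGGT, read as ACCACA on the other strand, are known to act in NK cells. The 250 bases before the annotated start are given 5′ to 3′ on the gene's strand from RefSeq (GRCm38.p6), with the letters of the motif in capitals. They are Ncr1 on chr7:4337474-4337723 (plus strand), Gzma on chr13:113100982-113101231 (minus strand), Gzmb on chr14:56262335-56262584 (minus strand) and Prf1 on chr10:61297586-61297835 (plus strand).
Ncr1: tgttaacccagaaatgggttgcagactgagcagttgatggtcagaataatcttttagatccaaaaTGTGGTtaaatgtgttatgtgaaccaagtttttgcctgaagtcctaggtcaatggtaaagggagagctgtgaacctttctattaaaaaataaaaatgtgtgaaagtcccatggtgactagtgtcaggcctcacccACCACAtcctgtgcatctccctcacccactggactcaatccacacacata
Gzma: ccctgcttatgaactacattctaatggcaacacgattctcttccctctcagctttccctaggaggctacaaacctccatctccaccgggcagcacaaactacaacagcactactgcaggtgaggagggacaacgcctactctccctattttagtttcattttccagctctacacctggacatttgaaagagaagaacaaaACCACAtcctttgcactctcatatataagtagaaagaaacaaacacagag
Gzmb: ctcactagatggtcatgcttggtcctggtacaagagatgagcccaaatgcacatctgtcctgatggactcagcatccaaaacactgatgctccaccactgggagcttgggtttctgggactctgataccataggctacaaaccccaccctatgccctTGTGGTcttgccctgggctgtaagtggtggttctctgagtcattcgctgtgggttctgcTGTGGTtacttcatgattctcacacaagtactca
Prf1: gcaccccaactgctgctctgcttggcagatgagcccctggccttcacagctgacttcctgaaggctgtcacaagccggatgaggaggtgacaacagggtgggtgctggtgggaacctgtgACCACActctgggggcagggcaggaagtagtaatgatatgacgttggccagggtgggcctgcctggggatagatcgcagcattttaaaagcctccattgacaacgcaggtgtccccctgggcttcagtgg

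All 4 hold the letters at least once, Ncr1 and Gzmb 2 times, and they were chosen with the matches known, so this count reflects the choice. On either strand the motif was found in 14.0% of 32851 promoter windows of this length, in 11.3% of the 11495 windows of genes tested and in 59 of the 372 windows of genes called higher (15.9%). The windows of Cma1, Irf8, Klra8, Klra3, S1pr5 and Itga2, also called higher, held none. For the T-box letters GGTGTG, read as CACACC on the other strand, which Eomes and Tbx21 can recognise, the shares were 16.3%, 15.1% and 18.8%, and for the ETS letters GGAAGT, read as ACTTCC on the other strand, they were 19.7%, 24.4% and 28.8%. Matches of TGTGGT and GGTGTG can overlap by 4 letters, and a match shows letters and not binding.

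Among 16 cytokine and chemokine genes tested, 3 were called higher (Ccl3, Ccl4 and Osm), 5 lower (Tnf, Ltb, Il10, Il17a and Areg) and 8 were not called, with a median log2 ratio of -0.90. In all 4 hashtags 0 were higher and Il17a alone was lower. Ccl4, a chemokine that attracts T cells and monocytes, was at 1228, 866, 1986 and 1108 CPM in A0309, A0310, A0311 and A0312 against 130, 758, 486 and 127 CPM in T cells (log2 2.16). In A0310 the groups were close. Ccl3 was at 480, 80.8, 784 and 352 CPM against 10.3, 657, 45.3 and 49.5 CPM, and in A0310 the T cells were higher. Xcl1, the ligand of Xcr1 on cross-presenting dendritic cells, was at 565, 300.7, 243 and 2015 CPM against 330, 480, 323 and 170 CPM. A0312 alone stood clear of T cells, and the gene was not called. Values of Xcl1 under 5 in a cell had been set to 0 before deposit, which also bears on its counts of cells and its sub-cluster levels. Ccl5 was high on both sides (3458 against 2166 CPM) and not called.

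Ifng, the cytokine by which NK cells are best known in obese fat, did not separate the 89 cells from T cells. It was at 211, 35.9, 318 and 224 CPM in A0309, A0310, A0311 and A0312, against 33.0, 156, 293 and 175 CPM. The ranges overlapped, and the pooled levels were 193 and 176 CPM (log2 0.13). Ifng was counted in 27 of the 89 cells (30.3%, 21.0 to 41.0%), in 31.3% of T cells and in 0.362% of fibroblast-gated cells. Of these 27 cells, 22 also had Ccl4 and 17 had Xcl1 counted.

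Tnf was at 18.2 CPM against 65.8 CPM in T cells (log2 -1.80), and all hashtags of the 89 cells, 12.2 to 26.2 CPM, lay under the T cell range. Il10 was at 10.6 CPM against 77.9 CPM, and the T cell level came mainly from A0309 (198 CPM) and A0312 (83.2 CPM). Il17a was at 0 against 20.4 CPM, at least 7.09-fold higher in T cells. Osm, oncostatin M, a cytokine of the interleukin 6 family, was counted in 6 cells, 3 in A0309 and 3 in A0312 (61.1 and 34.9 CPM), and was at 0 in A0310 and A0311. T cells had 3.11 CPM.

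Of 25 transcription factors, 3 were called higher (Eomes, Irf8 and Bhlhe40) and 5 lower (Tox, Ikzf2, Rora, Bcl11b and Zbtb16), with a median log2 ratio of 0.14. Eomes belongs to the rule, so its call was set by the choice of cells. It also lost the call under a stricter hashtag rule (log2 2.28 in place of 2.26). Irf8, a factor of myeloid cells that NK cells also use, was at 635, 974, 1547 and 538 CPM in A0309, A0310, A0311 and A0312 against 26.8, 45.2, 70.9 and 66.7 CPM in T cells. The groups were far apart in every hashtag (log2 3.75). Bcl11b, which T cells need for their identity, was at 0, 31.4, 0 and 14.5 CPM against 154 CPM (log2 -3.63). Bhlhe40 was at 560 CPM against 256 CPM (log2 1.12).

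Tbx21 (T-bet), shared by NK cells, ILC1 and type 1 T cells, was not called at 133 CPM against 118 CPM. Id2, the repressor that innate lymphoid cells require, was at 1138 CPM against 762 CPM and was not called. Per cell, Eomes was counted in 54 of the 89 cells and Tbx21 in 38, both in 25 and neither in 22. At a median of 10369 counts a cell, a gene at 0 in a single cell is not shown to be absent.

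Among 28 cytokine receptors and signalling genes tested, 3 were called higher and 6 lower (median log2 -0.42). Il12rb2, a chain of the interleukin 12 receptor, was at 36.7, 31.4, 67.6 and 87.2 CPM in A0309 to A0312 against 0, 10.4, 9.05 and 4.81 CPM in T cells (log2 3.14), without overlap. Il18rap, a chain of the interleukin 18 receptor, was at 247, 224, 351 and 503 CPM against 88.6, 118, 118 and 80.5 CPM (log2 1.85), and also without overlap. The third gene, Il2rb, belongs to the rule. Il7r was at 65.3 CPM against 329 CPM (log2 -2.32) and Il2ra, the high-affinity chain of the interleukin 2 receptor, at 12.5 CPM against 106 CPM (log2 -2.99). Cish, a feedback inhibitor of cytokine signalling in NK cells, was called lower at 51.8 CPM against 133 CPM. Il17rb and Il23r were at 0.

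Among 23 homing and adhesion genes, 4 were called higher and 3 lower (median log2 0.34). S1pr5, the sphingosine phosphate receptor with which mature NK cells leave tissues, was at 12.2, 8.98, 149 and 37.8 CPM in A0309, A0310, A0311 and A0312 against 2.08 CPM in T cells. Cx3cr1, the fractalkine receptor of mature NK cells, was at 30.5, 4.49, 182 and 14.5 CPM against 4.50 CPM. Both were highest in A0311. Itga2, the integrin CD49b of conventional NK cells, was at 97.7, 148, 203 and 128 CPM against 37.1, 24.3, 28.7 and 17.9 CPM (log2 2.41).

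Itgax (CD11c) was at 326 CPM against 78.2 CPM. Cxcr6, which retains lymphocytes in tissues, was called lower at 33.6 CPM against 175 CPM (log2 -2.35), and Ccr7, the lymph node homing receptor, was at 0 against 89.6 CPM, at least 31.1-fold higher in T cells. Itga1 (CD49a), an integrin of tissue-resident cells, was not called (78.7 against 70.3 CPM), and Cd69 was at 441 CPM against 476 CPM. Itga1 was counted in 17 cells and Itga2 in 37, both in only 4.

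**Figure D3:**
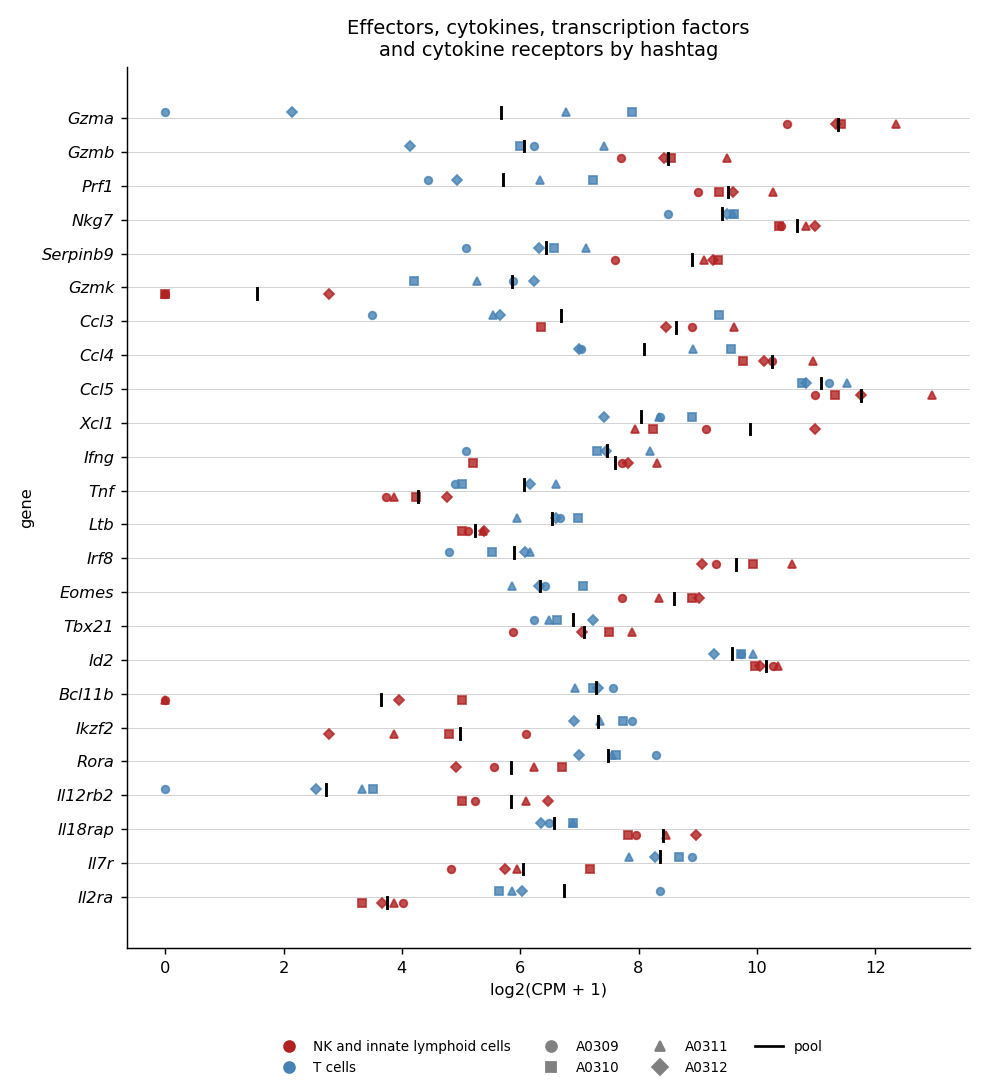
Levels of effector, cytokine, transcription factor and cytokine receptor genes as log2(CPM + 1) for NK and innate lymphoid cells and for T cells, with 1 point for each hashtag and a black line for the pool. Gzma and Irf8 are separated in every hashtag, whereas the hashtags of Ifng (35.9 to 318 CPM and 33.0 to 293 CPM) overlap.

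Calls among genes tied to obesity or to handling are given as a description. Over all genes tested 3.39% were called higher and 5.94% lower, so 0 or 1 call in a short list lies near that share. Of 18 genes linked to lipid handling or obesity in NK cells, 0 were called higher and Hif1a alone lower (65.3 against 145 CPM, log2 -1.14). Without A0312 Hif1a was not called (log2 -0.58). Fabp4 and Cd36 were counted in 1 and 3 of the 89 cells, but values under 9 of Fabp4 and under 13 of Cd36 had been set to 0, so low levels in other cells are not excluded. None of 14 immediate early and heat-shock genes was called, although Fos was high on both sides (1599 CPM, 1047 to 2422 over the hashtags, and 772 to 2130 CPM in T cells). Of 15 cell cycle genes 3 were called lower, and Ube2c among them (81.6 against 178 CPM) took the opposite sign without A0312. Without the 10 unnamed cells 8 of the 15 were called lower, with Ube2c at log2 -4.95 in place of -1.12. Mki67 was counted in 11 cells.

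Of 7 genes of the Mincle pathway, Fcer1g and Syk were higher, Clec4e and Clec4d were lower, and Card9, Malt1 and Bcl10 were not called. In all 4 hashtags only Fcer1g and Syk were called. Clec4e and Clec4d lost the call under a stricter hashtag rule (log2 -0.45 in place of -2.30, and -2.18 in place of -2.25), Clec4e also without A0309 (log2 -0.36), and Syk lost it when at least 3 rule genes were required (log2 1.86 in place of 2.03). Clec4e itself, on chromosome 6 from 123281789 to 123289870, gave 1 count in 1 of the 89 cells (0.96 CPM), in A0310, against 8.65 CPM in T cells, of which A0309 held 41.2 CPM, and 6.04 CPM in macrophage-gated cells. One count is under the floor of 3, so the gene was not detectable in the 89 cells at this depth in any hashtag, and it does not serve to check a genotype here.

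Outside the lists, the genes with the largest ratios included Car2, carbonic anhydrase II, at 107, 197, 87.8 and 247 CPM in A0309 to A0312 against 5.54 CPM in T cells (log2 4.71). Styk1, a kinase-like membrane protein, was at 61.4 CPM against 2.77 CPM. Rab27b, a regulator of granule release, was at 64.3 CPM against 3.46 CPM. Aoah, an enzyme that inactivates endotoxin, was at 72.0 CPM against 5.54 CPM, and Cbfa2t3, a transcriptional corepressor, was at 129 CPM against 9.00 CPM (log2 3.696). Cbfa2t3 was counted in 60% of the 10 unnamed cells and in 25.5% and 28.1% of the other sub-clusters, and its log2 ratio was 2.92 without those 10 cells, 2.57 with at least 3 rule genes and 2.44 without A0309. Khdc1a was counted in 11 cells and in 0 T cells (38.4 CPM, at least 37.0-fold higher). Ccl7 was called through 126 counts in 1 cell of A0309 and is not a property of the cells as a whole. The genes called lower included Foxp3 (0 against 69.9 CPM), Tnfrsf4 (0.96 against 163 CPM) and Ctla4 (32.6 against 324 CPM, log2 -3.27), all known from regulatory or activated T cells. Cd68, which the rule limits in both groups, was at 0 against 105 CPM. Ly6a2 was higher (87.3 against 1.04 CPM) while Ly6a was at 0 against 166 CPM, but these neighbours are paralogs and Ly6a values under 6 had been set to 0.

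T cell receptor chains gave a mixed picture in cells chosen for having no Cd3. Trac was counted in 6 of the 89 cells (12.5 against 606 CPM). Trbc1, the first beta constant gene, was counted in 76 of them (85.4%, 76.3 to 92.0%) against 72.5% of T cells and 0.846% of fibroblast-gated cells. Its level was 516, 637, 649 and 712 CPM in A0309 to A0312 against 721, 1040, 923 and 1011 CPM, so it was lower in each hashtag but not called (log2 -0.59). Trbc2 was counted in 47 cells (333 against 995 CPM, log2 -1.58) and Trdc in 17 (42.2 against 201 CPM). Trbc1 and Trbc2 are near-identical and can share reads. The alpha chain was thus nearly missing while beta constant transcripts were present in most cells. Of 12 T cell markers, at least 3 were counted in 14 of the 89 cells, although the Cd3 genes were 0 by rule. Among T cells 209 had at least 3. In the sub-clusters described further on, these 14 were 7 conventional-NK-like, 5 ILC1-like and 2 unnamed cells. Trgc4, a gamma constant gene, was counted in 21.9% of ILC1-like and 0% of conventional-NK-like cells, and Trgc1 in neither. Whether T cells without a Cd3 count are among the 89 was not tested.

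Clustering the 89 cells on their own transcripts gave 3 sub-clusters. The clusters were made from these values and their genes are a description. Between the first and the second, 12.7% of 12481 genes were called higher and 12.8% lower, with only A0312 holding at least 10 cells of each, so single calls carry little weight and the fixed markers are given. The first sub-cluster, of 47 cells (52.8%), met 9 of 11 conventional NK markers and had Cma1 and Itgam among its 10 leading genes. It is called conventional-NK-like. The second, of 32 cells (36.0%), met 7 of 10 ILC1 markers (Il7r, Tmem176a, Tmem176b, Cd200r1, Inpp4b, Tnfsf10 and Xcl1) and is called ILC1-like. Their median depths were 9939 and 10279.5 counts. A0309, A0310, A0311 and A0312 gave 13, 8, 11 and 15 conventional-NK-like cells and 7, 9, 4 and 12 ILC1-like cells, so both were found in every hashtag.

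Granule genes were higher in the conventional-NK-like cells. Gzma was at 3097, 4706, 7042 and 4629 CPM in A0309, A0310, A0311 and A0312 of the conventional-NK-like cells and at 107, 518, 0 and 459 CPM in the ILC1-like cells, without overlap. It was counted in 87.2% and 21.9% of these cells. Prf1 was at 953, 1243, 1465 and 1424 CPM against 306.9, 223, 551 and 337 CPM. Gzmb was at 699 CPM against 68.1 CPM, and Cma1 at 170 CPM against 0, at least 19.1-fold higher, so that all 16 cells with Cma1 were conventional-NK-like. Itgam (CD11b), an integrin gained as NK cells mature, was at 440 CPM against 50.4 CPM, 8.75-fold higher. Irf8 (1237 against 178 CPM) and Klra4 (632 against 56.3 CPM) ran the same way. Of the 48 cells with both Gzma and Prf1, 40 were conventional-NK-like.

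In the ILC1-like cells Il7r, the receptor for interleukin 7, was at 66.7, 329, 236 and 129 CPM in A0309, A0310, A0311 and A0312 against 13.2, 36.2, 0 and 0 CPM, 17.6-fold higher in the pool. Cxcr6 was at 88.9 CPM against 0, at least 14.7-fold higher, though it was 0 in the ILC1-like cells of A0309. Inpp4b, a phosphoinositide phosphatase, was at 225 CPM against 10.1 CPM, and Tnfsf10 (TRAIL), a death ligand of ILC1, at 107 CPM against 10.1 CPM. Ltb, lymphotoxin beta, was at 101 CPM against 0. Xcl1 was at 1905 CPM against 533 CPM and was higher in each hashtag.

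Other ILC1-like features were not those of the usual ILC1 definition. Ly6c2, which encodes the surface protein Ly6C of many circulating NK and memory T cells, was at 2415, 4187, 3990 and 1405 CPM in the ILC1-like cells and at 602, 543, 1165 and 589 CPM in the conventional-NK-like cells, without overlap, with the limit that its paralog Ly6c1 can share reads. Itga1, the integrin by which ILC1 are usually gated, was at 101 CPM against 78.8 CPM and was 0 in A0311, and it was not called. Eomes, which ILC1 usually lack, was counted in 14 of the 32 ILC1-like cells and in 36 of the 47 others (258 against 550 CPM). Cd27, carried by less mature NK cells and by ILC1, was counted in 62.5% against 23.4% of cells. Tbx21 (175 against 143 CPM), Ncr1 (474 against 449 CPM) and Ifng (157 against 271 CPM) were not called either. The name therefore rests on the fixed marker list and not on Itga1 or the absence of Eomes.

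The third sub-cluster held 10 cells, 5 of A0309, 2 of A0310, 0 of A0311 and 3 of A0312, with a median of 23513.5 counts. Its leading genes included Cd209a (663 CPM), H2-Aa, H2-Ab1 (6811 CPM) and Cd74 (11294 CPM) of dendritic cells, while all 6 cycling markers were met too (Mki67 816 CPM). Of the 10, 5 had only 2 of the 6 rule genes and at least 3 dendritic markers, 1 of them also with at least 3 cycling markers, and the other 5 had 4 or 6 rule genes, at least 3 cycling markers and not 3 dendritic ones. The 10 cells are left without a type name. Without them the comparison with T cells gave 470 genes higher (3.83%) and 974 lower (7.93%), and Cd247 (log2 -1.004) and Areg (log2 -0.99) were not called.

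The 6 rule genes do not mark ILC2, so ILC2 were also looked for outside the rule. Cells that failed the macrophage, fibroblast or endothelial limits were not searched. Of 1354 cells outside the rule that had no Cd3 count and passed the same limits, 25 (1.85%) had at least 2 of Gata3, Il1rl1, Il5, Il13 and Il17rb counted, 21 of them with Ptprc (CD45) and 17 with both Ptprc and Il7r. Of the 89 cells 4 had such a pair (4.49%), and so did 24 of the 211 T cells (11.4%). These shares are not thinned to 1 depth.

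The signals that act on these lymphocytes were read in their neighbours, the 7283 macrophage-gated, 3311 fibroblast-gated and 1212 endothelial-gated cells. Il15, the survival cytokine of NK cells, was at 19.6 CPM in macrophage-gated, 7.42 in fibroblast-gated and 22.0 in endothelial-gated cells, and Il15ra, which presents it, at 1.87, 25.9 and 18.9 CPM. Il18 was at 12.8, 12.96 and 0.978 CPM, and Il12b at 0.0850, 0.189 and 0.407 CPM. Il33, a signal for ILC2, was at 0.484, 69.4 and 1.71 CPM and was led by fibroblast-gated cells.

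Clec2d, the ligand of the inhibitory Klrb1b, was at 88.5, 316 and 438 CPM in the macrophage-gated, fibroblast-gated and endothelial-gated cells, and thus lowest in macrophages. Of the stress ligands of NKG2D (Klrk1), Ulbp1 was at 28.2, 6.31 and 24.7 CPM, Raet1d at 3.95, 0.781 and 2.89 CPM and Raet1e at 1.86, 0.655 and 4.32 CPM. The ligands of Cd226 followed another order, with Pvr at 39.5, 41.6 and 68.9 CPM and Nectin2 at 1.95, 8.60 and 83.3 CPM. Cd48, which binds Cd244a, was at 155, 5.97 and 24.3 CPM, led among these gated groups by macrophages. Cfp, properdin, reported as a ligand of NKp46, had the same lead (178, 10.2 and 28.4 CPM). Cd48 was also counted in the lymphocytes themselves, in 53.2% of conventional-NK-like cells, 25% of ILC1-like cells and 100% of the unnamed cells. Among chemokines, Cxcl9 was at 7.94, 15.9 and 137 CPM, and Cxcl16, the ligand of Cxcr6, at 102, 40.4 and 30.1 CPM. These are levels of transcripts in groups of cells, and contact between the cells was not measured.

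**Figure D4:**
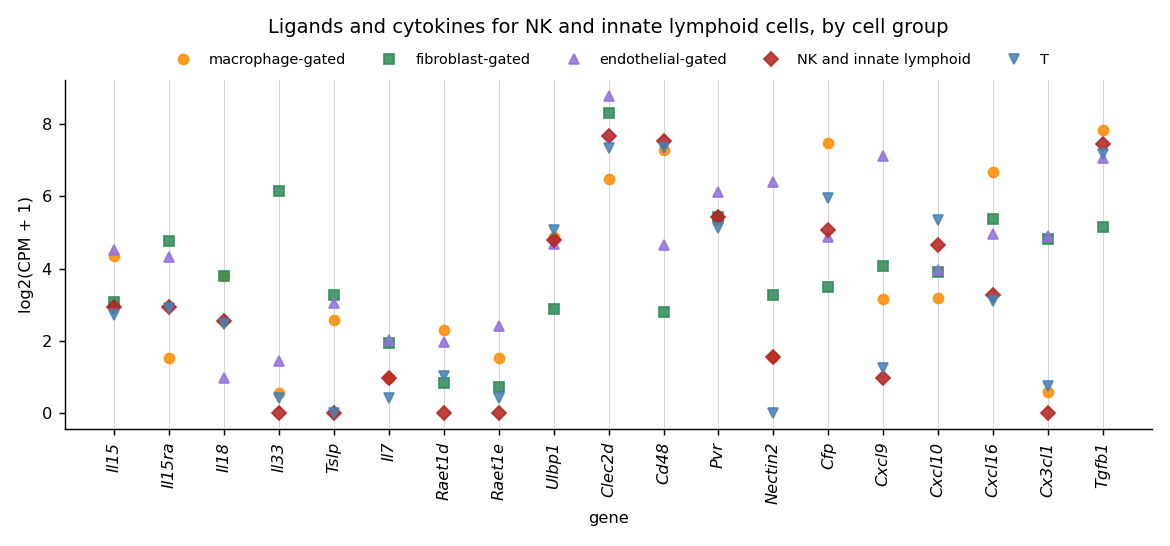
Levels of cytokines and ligands for NK and innate lymphoid cells, as log2(CPM + 1), in the groups of cells named in the key. Leads are named among the macrophage-gated, fibroblast-gated and endothelial-gated cells only. Among these, Il33 is led by fibroblast-gated cells at 69.4 CPM, Nectin2 and Cxcl9 by endothelial-gated cells at 83.3 and 137 CPM, and Cd48 by macrophage-gated cells at 155 CPM.

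Against all other cells of the pool, which had a median of 34417 counts a cell, 12.3% of 12781 genes were called higher (1571 genes) and 16.5% lower (2106 genes), with a median log2 ratio of 0.21. Of 28 NK receptors 24 were higher and 1 lower, of 19 cytotoxic effectors 14 were higher and 2 lower, and of 18 genes of lipid handling 1 was higher and 6 lower. The rule's limits on macrophage and fibroblast genes set part of this contrast. Of 9 macrophage markers 9 were lower, and Cd68, C1qa and C1qb among them are limits of the rule.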

How the data were processed

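The authors deposited a transcript table of raw counts (30084 genes, 15741 cells), in which each cell is named by a hashtag or, for 367 cells left out here, as a doublet, per the file headers. The sources used here do not say if reads or molecules were counted. The submitters' processing notes list GRCm38, Bowtie2 2.4.2, cutadapt 3.4, R 4.1.2 and R 3.6.3 without their roles. In 68 genes, values below a gene-specific minimum (5 to 68) were at 0 as deposited. All 15741 cells also have a row in the deposited table of hashtag counts. No doublet caller was run. Counts were summed over cells and scaled to CPM, and ratios were taken as log2 of (CPM + 1) for genes at 5 CPM or more on either side. No significance test was run, since cells of 1 pool are not replicates and were chosen by these counts. Of 345 listed genes 10 were not analysed here. Cells were clustered with scanpy 1.11.5 (1000 variable genes, 15 components, 15 neighbours, Leiden resolution 0.5), a list marking a sub-cluster by markers in at least 25% of its cells, and intervals came from scipy 1.17.1. The size rule was tested on simulated data.

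The cells, lists and rules were chosen with earlier results of these data known, and 1 gene of the marker and transcription factor lists is not reported here. Named genes are those of the cell rule, Clec4e, Osm and Ifng, the up to 4 most changed called genes and the most abundant uncalled gene of each list, the 10 most changed genes in each direction outside the lists at 50 CPM or more, and sub-cluster markers. Other genes, among them the T cell receptor chains and ligands, were named after their values were seen. Gene positions are from GENCODE on GRCm38, and promoters from RefSeq (GRCm38.p6). Alternatives changed the hashtag rule, the cell limits, the pseudocount, the filter, the summing and the clustering, and each hashtag was left out in turn.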

Additional observations from a re-analysis of the deposited data

How the results depend on the processing

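The share of 0.579% became 0.717% under a stricter hashtag rule (at least 10 tag counts, 75% from 1 hashtag) and 1.27% when cells above 3 times the median count of the 89 cells were left out of all cells. Leaving out each hashtag gave 0.530 to 0.645%. Against T cells, the 417 genes higher and 731 lower became 232 and 373 with a pseudocount of 5 CPM and 231 and 294 at 20 CPM or more. Without a filter 1107 genes were lower. With all 4 hashtags required, an alternative chosen after seeing the data, 106 were higher and 297 lower. Leaving out each hashtag gave 487 to 1063 higher and 764 to 1588 lower, with 1056 and 1588 without A0309 and 1063 and 1502 without A0312, since only 1 hashtag then counts in the rule. Against all other cells, leaving out hashtags gave 1631 to 2618 higher (2618 without A0309) and 2156 to 2817 lower, all 4 hashtags gave 776 higher, and 20 CPM or more gave 1239 lower. At Leiden resolution 1.0 there were 5 sub-clusters, the 2 nearest to those described held 24 and 19 cells and differed by 3172 and 2936 genes, with no hashtag large enough to count, and at 0.25 there was 1 cluster and no comparison. Of 90 named genes, 66 of them called, 17 lost the call with all 4 hashtags, 9 with a pseudocount of 5 CPM and 6 with the stricter hashtag rule. Leaving out 1 hashtag moved 33 of the 66 by over 1.5 times, and 4 (Ccl7, Clec4e, Hif1a and Ube2c) lost the call or changed sign. Leaving out A0309 or A0312 loosens the rule, and leaving out A0310 or A0311 does not change its hashtag condition. Few calls could thus be lost this way, and the 4 are no measure of stability. Ccl7 changed sign without cells above that depth (log2 -0.15), as did Ube2c without A0312 (log2 -1.54 to 0.40 over the 4 hashtags left out). Ccl7 was called through 1 cell of A0309, as given above. The cause of these changes was not tested. Both groups occur in every hashtag, and the size rule takes their ratio within each hashtag that counts. No paired test was run, since the cells were chosen by these counts and the labels give no replicate numbers. The hashtags' values are given side by side. A group of 89 cells has a floor of 2.88 CPM for 3 counts, against 1.04 CPM in T cells.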

Other observations

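The hashtags, which no label puts in a group, stood apart for some receptor genes of the natural killer gene complex and not for others. Klra8 was counted in 14 of the 25 cells of A0309, 9 of 19 of A0310, 5 of 15 of A0311 and 5 of 30 of A0312 (785, 902, 122 and 87.2 CPM). Klrb1b was counted in 13, 14, 1 and 6 of these cells (302.4, 494, 6.76 and 75.6 CPM), and Klri2 in 11, 8, 1 and 3 (147, 184, 27.0 and 14.5 CPM). A0309 and A0310 were thus higher than A0311 and A0312 for these 3 genes.

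Klra1 ran the other way, with counts in 3, 2, 9 and 18 cells of A0309, A0310, A0311 and A0312 (85.5, 26.9, 304.05 and 323 CPM), and Klra4 was counted in 5, 4, 9 and 19 cells (150, 274, 405 and 727 CPM). Klrd1, in the same stretch of chromosome 6, was at 547, 507, 480 and 602 CPM, with no hashtag apart. These genes were picked after their values were seen, and near-identical copies can share reads. The conventional-NK-like cells also differ in share between hashtags (13 of 25, 8 of 19, 11 of 15 and 15 of 30 cells). What the difference between hashtags comes from was not tested.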
